A study of Mus musculus with 2 samples.

Results

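The cells described here are stromal cells of the mouse yolk sac that carry transcripts of Wnt2, Nkain4 and Prss35. They were picked by measured transcripts. Barcodes entered with 500 or more detected genes and no more than 10% of their UMIs (unique molecular identifiers, each counting 1 captured transcript) from mitochondrial genes. A member had to hold at least 10 UMIs of Col1a1, Col1a2 and Col3a1 together per 10000 UMIs, which defines a stromal cell here. It had to hold at least 3 UMIs of Wnt2, Nkain4 and Prss35 together, fewer than 3 UMIs of the uroplakin genes Upk3b and Upk1b, and less than 5% of its UMIs from the embryonic globins Hbb-y, Hbb-bh1 and Hba-x. These cells, called members below, numbered 94 of 1634 kept barcodes: 77 of 847 in the Baf155 CKO library and 17 of 787 in the WT library. Stromal cells under 3 UMIs of the marker genes and under 3 UMIs of the uroplakins, called the other stromal cells, numbered 55 in the CKO library and 94 in the WT library. Stromal cells with at least 3 uroplakin UMIs numbered 149 in the CKO library and 129 in the WT library.

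The series holds 10x Genomics droplet libraries of yolk sac from B6 mice, 1 of the Baf155 CKO genotype and 1 of wild type (WT). Each library mixed yolk sacs of E9.5 and E10.5 embryos in equal embryo numbers, dissociated with collagenase, frozen, thawed and sorted to remove dead and Ter119+ erythroid cells. The labels name the material both as nuclei and as cells. The sources used here do not give the Cre line, the deleted exons or the number of embryos, so the cell types in which Baf155 was deleted are not known here. With 1 library per genotype there is no replicate, so no test between genotypes was possible. All intervals below are 95% intervals for counting error only, and genotype, library, embryo and stage cannot be told apart. Because the values of the marker genes chose the members, those values and all comparisons of members with other cells are given as descriptions.

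The yolk sac wall is built of visceral endoderm, a mesenchymal stroma with blood vessels and a mesothelial lining, and its stroma makes the matrix and many of the secreted signals around the first blood and vessels. Wnt2 is a secreted ligand of the Frizzled receptors, and in the mouse it is needed for normal growth of the placental vessels and, with Wnt2b, for the start of the lung. Nkain4 belongs to a family of membrane proteins that bind the beta subunit of the Na,K-ATPase, and Prss35 is a secreted protein of the trypsin-like family. Fst (follistatin) is a secreted inhibitor of activins, Rarres2 encodes the precursor of chemerin, and Igfbp5 is a secreted protein that binds insulin-like growth factors. BAF155, the protein of Smarcc1, is a core subunit of the BAF chromatin remodelling complex.

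The 6 genes that mark these cells lie at separate places in the genome. On GRCm38 Wnt2 is at chr6:17988940-18030585 on the minus strand, Nkain4 at chr2:180934772-180954699 on the minus strand and Prss35 at chr9:86743649-86758443 on the plus strand. Fst is at chr13:114452290-114458951, Rarres2 at chr6:48569696-48572789 and Igfbp5 at chr1:72857932-72874884, all on the minus strand. Promoter windows are shown for the markers, of which Wnt2, Nkain4 and Prss35 entered the rule and Fst, Rarres2 and Igfbp5 did not. RefSeq (GRCm38.p6) gave a window of 250 bases before and 50 bases after the start for 3 of the 6 markers. Capitals mark the GC box GGGCGG and the GATA motif GATAA on either strand, so that CCGCCC and TTATC are the same motifs read on the opposite strand.
Wnt2, chr6:18030396-18030695, minus strand: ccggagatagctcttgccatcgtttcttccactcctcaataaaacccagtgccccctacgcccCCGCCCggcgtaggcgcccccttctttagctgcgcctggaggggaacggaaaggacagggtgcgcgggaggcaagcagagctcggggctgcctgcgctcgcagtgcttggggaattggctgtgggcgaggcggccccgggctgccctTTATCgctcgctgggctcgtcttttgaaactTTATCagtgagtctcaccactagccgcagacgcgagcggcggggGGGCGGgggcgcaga
Prss35, chr9:86743383-86743682, plus strand: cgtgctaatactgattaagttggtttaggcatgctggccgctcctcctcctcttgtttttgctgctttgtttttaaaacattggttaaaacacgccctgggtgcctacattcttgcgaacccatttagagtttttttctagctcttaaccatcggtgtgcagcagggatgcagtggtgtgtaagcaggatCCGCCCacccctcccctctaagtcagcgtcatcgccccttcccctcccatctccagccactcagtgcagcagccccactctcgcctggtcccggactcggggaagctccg
Igfbp5, chr1:72874816-72875115, minus strand: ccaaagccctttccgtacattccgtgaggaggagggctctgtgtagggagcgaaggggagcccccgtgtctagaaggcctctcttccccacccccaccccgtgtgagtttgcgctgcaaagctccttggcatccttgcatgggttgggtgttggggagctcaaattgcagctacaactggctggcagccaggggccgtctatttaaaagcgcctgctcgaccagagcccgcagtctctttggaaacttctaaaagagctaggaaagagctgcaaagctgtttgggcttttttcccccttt
The Wnt2 window held 2 GC boxes and 2 GATA motifs, the Prss35 window 1 GC box, and the Igfbp5 window none of these. Of the 32851 RefSeq windows of this length, 35.7% held a GC box and 25.4% a GATA motif. The TATA box TATAAA (13.6% of windows), the AP-1 motif TGANTCA (7.81%) and the bicoid-type motif TAATCC (7.06%) were searched on both strands too and were in none of the 3 windows. No searched motif was shared by all 3 windows.

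In the CKO members, the summed level of Wnt2 was 197 CPM (the gene's UMIs as a part of all UMIs of the group, on the usual CPM scale), that of Nkain4 176 CPM and that of Prss35 230 CPM. In the WT members Wnt2 was at 167 CPM and Nkain4 at 136 CPM, but Prss35 only at 46.3 CPM. All 3 genes of the name were thus well represented in the CKO members, and mainly Wnt2 and Nkain4 in the WT members. In the other stromal cells of either library the 3 genes lay between 2.64 and 11.2 CPM, which the choice of members fixed. Fst, Rarres2 and Igfbp5 did not enter the rule, and their summed levels were higher in the members than in the other stromal cells of both libraries. These 3 genes were named as markers with earlier results of these data known, so their higher levels are a description too. Fst was at 62.9 CPM (51.2 to 76.4) in the CKO members and at 55.5 CPM (35.6 to 82.6) in the WT members, against no UMI in the other CKO stromal cells and 1.00 CPM in the other WT stromal cells. It had a UMI in 26 of 77 CKO members and in 3 of 17 WT members, and 18 of the 24 WT UMIs came from 1 cell, so the WT level rests on that cell. Rarres2 was at 265 CPM in the CKO members and 199 CPM in the WT members, against 38.3 CPM in the other CKO stromal cells and 49.7 CPM in the other WT stromal cells. Igfbp5 was at 266 CPM in the CKO members and 67.1 CPM in the WT members, against 20.5 CPM in the other CKO stromal cells and 13.1 CPM in the other WT stromal cells. The counting intervals of Igfbp5 were 242 to 293 CPM in CKO members and 44.9 to 96.3 CPM in WT members. Those of Rarres2 overlapped narrowly (241 to 292 CPM in CKO members, 159 to 246 CPM in WT members), which does not show equal levels. The CKO level of Igfbp5 was uneven among members. It was at 396 CPM in those with Y-linked and no Xist UMI and 64.9 CPM in those with Xist and no Y-linked UMI.

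**Figure D1:**
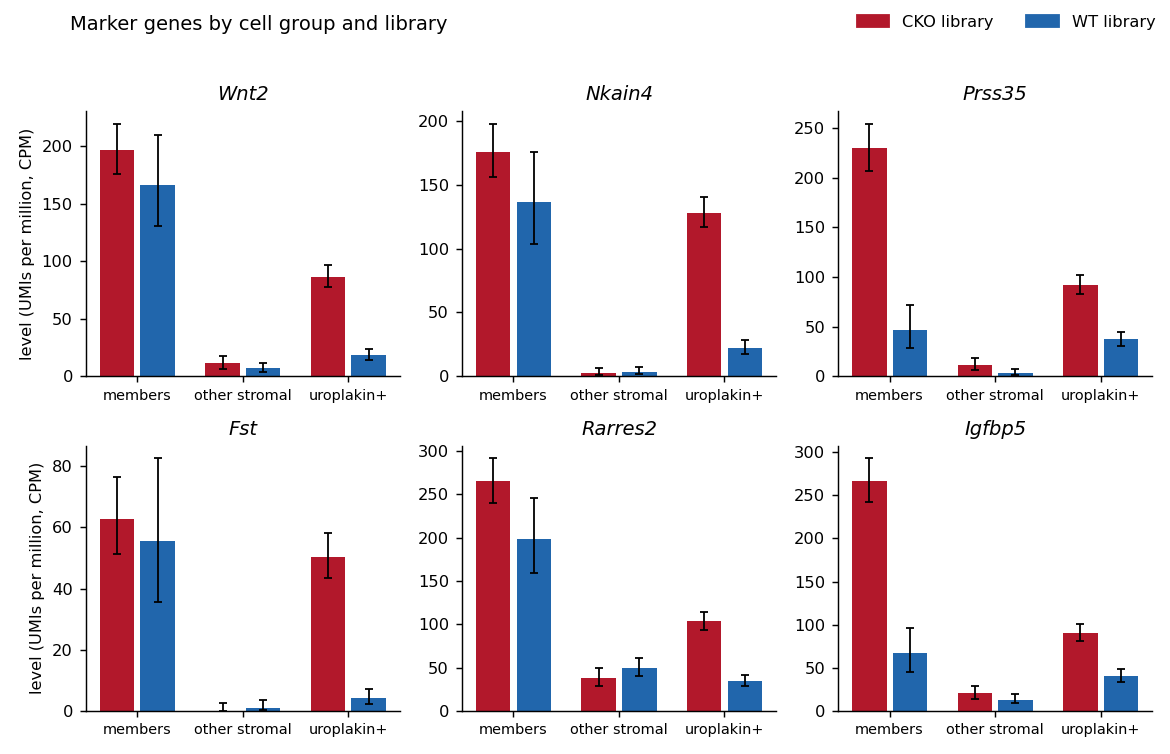
Levels of the 6 marker genes in CPM (bars, 95% Poisson intervals as lines) in members, other stromal cells and uroplakin-positive stromal cells, CKO library in red left of the WT library in blue. Prss35 and Igfbp5 stand higher in CKO members than in WT members, and the uroplakin-positive CKO cells also carry all 6 genes, with Wnt2 at 86.7 CPM against 18.6 CPM in those of the WT library.

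Droplets can hold free RNA, so the members were set against globin-rich cells, which should lack these genes. Wnt2 had a UMI in 88.3% of CKO members (76.0% when each cell was thinned to 10000 UMIs), against 2.65% of the 264 globin-rich CKO cells (0.403% thinned), although the median depth of those cells was higher, 34836.5 UMIs against 20231. In the WT library Wnt2 had a UMI in 82.4% of members (68.8% thinned), against 0.645% of the 155 globin-rich cells (0 of 142 thinned), with median depths of 24847 and 33128 UMIs. The rule itself required marker UMIs, so the share in members is a description. Globin RNA, which sorted stromal cells should lack, was higher in CKO droplets: Hbb-y had 1157 CPM in CKO members and 187 CPM in WT members, and 1099 CPM in the other CKO stromal cells and 168 CPM in the other WT stromal cells.

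Smarcc1, the targeted gene, was at 34.2 CPM (25.8 to 44.6) in the CKO members and 76.3 CPM (52.5 to 107) in the WT members, a ratio of 0.448 (0.286 to 0.713). It had a UMI in 24 of 77 CKO members and 13 of 17 WT members. In the other stromal cells it was at 26.4 CPM in the CKO library and 100.5 CPM in the WT library. The Smarcc1 transcript was thus lower in the CKO library in members as in other stromal cells, but not absent. Members of the CKO library held 1606932 UMIs in all (median 20231 per cell, 6328 to 47780) and those of the WT library 432342 (median 24847, 7903 to 39572). No member was called a doublet, and no barcode of a member was shared between the libraries. The macrophage and neural lists summed to low levels in members. Of the macrophage list C1qa and Cx3cr1 had no UMI in members of either library, and the list summed to 24.9 CPM (17.8 to 33.9) in CKO and 9.25 CPM in WT members. That was above the 4.62 CPM (1.86 to 9.52) of the other CKO stromal cells and the 9.57 CPM of uroplakin-positive CKO cells. In the other WT stromal cells the macrophage list summed to 5.02 CPM. Of the endothelial list Cdh5, Tie1 and Emcn had no UMI in any member, and the list summed to 89.0 CPM in CKO members and 23.1 CPM in WT members. Kdr and Tek, which encode the VEGF receptor 2 and the angiopoietin receptor, carried most of that sum: Kdr had 61 UMIs in 29 of 77 CKO members and 3 UMIs in 3 of 17 WT members, and Tek 60 UMIs in 34 CKO members and 7 UMIs in 5 WT members. Msln, Muc16 and Upk3bl of the mesothelial list were at 0 in members of both libraries. That list summed to 553 CPM in CKO members and 257 CPM in WT members. In uroplakin-positive cells it summed to 826 CPM in the CKO library and 747 CPM in the WT library. The list includes Upk3b and Upk1b, which the rule limited in members, so the choice of cells fixed their part of this gap. Krt19 of that list, outside the rule, was at 493 CPM in CKO members and 293 CPM in uroplakin-positive CKO cells. In the WT library it was at 234 and 222 CPM. The erythroid list summed to 2433 CPM in CKO members and 361 CPM in WT members, and its part in the results below was not tested. The neural list summed to 2.49 CPM in CKO members and 2.31 CPM in WT members.

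These cells made up a larger share of the CKO library. They were 9.09% of kept barcodes in the CKO library (exact binomial interval 7.24 to 11.2) and 2.16% in the WT library (1.26 to 3.44), and 27.4% of 281 stromal cells in the CKO library and 7.08% of 240 stromal cells in the WT library. After thinning each cell to 10000 UMIs they were 8.48% of 802 CKO cells and 1.96% of 713 WT cells. The stromal cells as a whole were 33.2% of kept barcodes in the CKO library and 30.5% in the WT library, and the uroplakin-positive cells 17.6% in the CKO library and 16.4% in the WT library. The stromal share thus was close in both libraries, while the other stromal cells made up 6.49% of the CKO library and 11.9% of the WT library. A sort, a freeze and a mix of 2 stages preceded these shares, and their part in the difference was not tested. Where the uroplakin limit was dropped, the share was 19.2% in the CKO library and 4.32% in the WT library, since many uroplakin-positive cells also carry the marker genes.

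The members differed in how many of the marker genes they showed. In the CKO library 33 of 77 members had UMIs of all 3 genes and 26 had Wnt2 and Prss35 without Nkain4. In the WT library 7 of 17 had Wnt2 and Nkain4 without Prss35, and 3 had all 3 genes. The summed marker UMIs ran from 3 to 54 with a median of 10 in CKO members and from 3 to 30 with a median of 6 in WT members, and 34 CKO members and 4 WT members held at least 12. At the threshold itself, 6 CKO cells and 2 WT cells held exactly 3 marker UMIs, while 10 CKO cells and 6 WT cells just outside held 2. In the CKO library the cells just inside had Igfbp5 at 92.5 CPM and Hoxc8 at 292 CPM, and those just outside Igfbp5 at 6.91 CPM and Hoxc8 at 152 CPM.

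Several genes outside the rule were higher or lower in cells with more marker UMIs. In the CKO library Fst was at 4.2 CPM in the 21 cells with 3 to 5 marker UMIs, 7.02 CPM in the 22 with 6 to 11 and 136 CPM in the 34 with 12 or more. Nrk, an X-linked kinase of the germinal centre kinase group, was at 79.9, 215 and 412 CPM in the same order, against 11.4 CPM in the 27 cells with no marker UMI. The fatty acid binding protein gene Fabp5 was at 244, 725 and 1813 CPM. Hoxc8, a positional transcription factor gene, ran the other way, with 206, 110 and 12.8 CPM, against 320 CPM in cells with no marker UMI. Tdo2, which encodes a tryptophan dioxygenase, was lower in all 3 classes (37.8, 79.5 and 18.5 CPM, with no steady order) than in cells with no marker UMI (207 CPM). In the WT library the 8, 5 and 4 cells of these classes had Nrk at 128, 469 and 528 CPM, but Rarres2 at 298, 198 and 48.7 CPM, so that Rarres2 did not climb with the marker UMIs there.

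**Figure D2:**
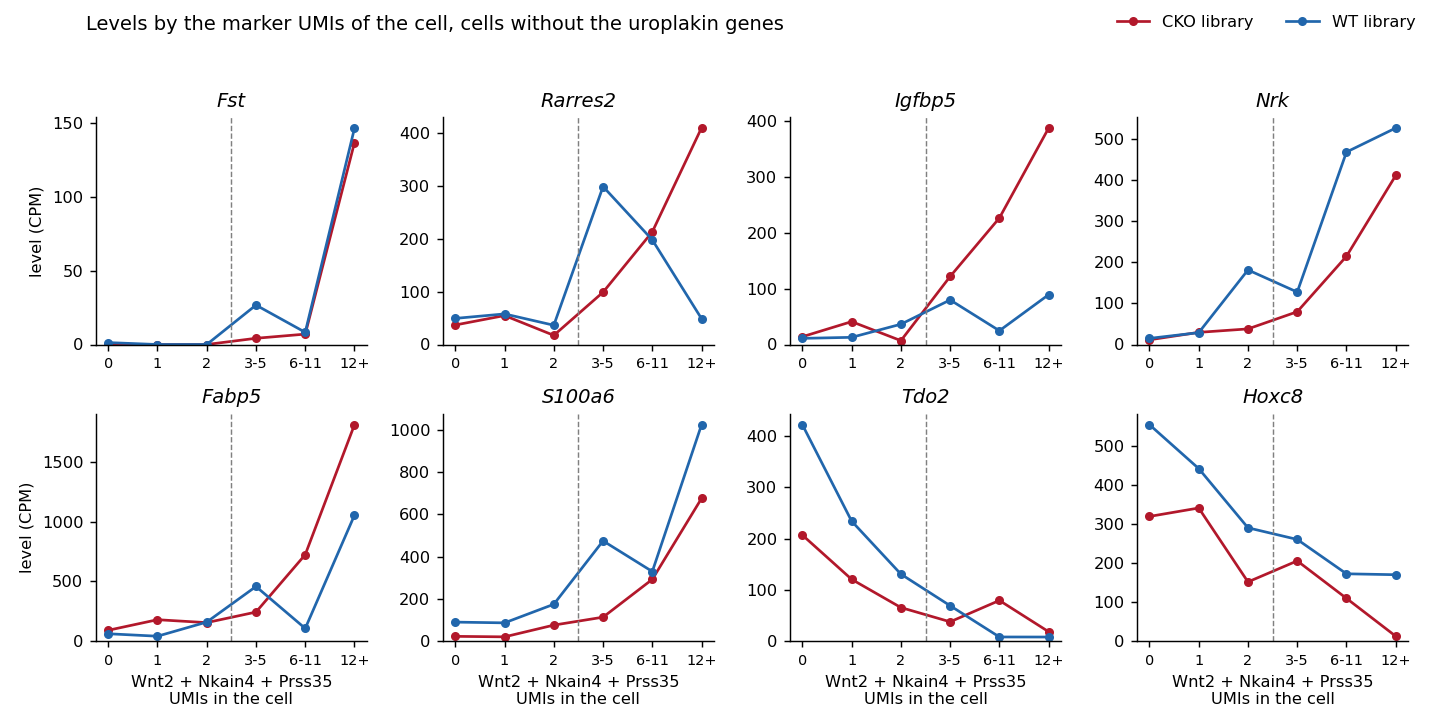
Level in CPM of 8 genes that did not enter the rule (y axes) in stromal cells grouped by their summed Wnt2, Nkain4 and Prss35 UMIs (x axes), without the uroplakin-positive cells, CKO library in red and WT library in blue; members lie right of the dashed line. Fst, Nrk, Fabp5 and S100a6 stand highest in the cells with 12 or more marker UMIs in both libraries (34 CKO cells, 4 WT cells). The 18 Fst UMIs of that WT class come from 1 cell. Tdo2 and Hoxc8 stand lowest in that class in the CKO library. In the WT library the classes of 6 to 11 and of 12 or more marker UMIs each held 1 Tdo2 UMI and 21 Hoxc8 UMIs.

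When all stromal cells were clustered without the rule genes, the members did not fall into 1 cluster. Of the 77 CKO members 44 fell into a cluster with 60 uroplakin-positive CKO cells, 1 WT member and 9 uroplakin-positive WT cells. Another 17 CKO members were in a cluster with 33 other CKO stromal cells, and 9 CKO members shared a cluster with 8 WT members, while the few CKO members left lay in 3 further clusters. The remaining WT members were 8 in a cluster of 65 other WT stromal cells and the 1 named above. Among the 15 nearest neighbours of a CKO member, 41.1% were members, 45.2% uroplakin-positive cells and 96.5% CKO cells on average. For WT members, 37.0% of neighbours were members, 52.1% other stromal cells and 20.6% CKO cells. Of all CKO stromal cells 27.4% were members and 53.02% uroplakin-positive, so members were more frequent and uroplakin-positive cells less frequent among the neighbours of CKO members than in their library. Of all WT stromal cells 7.08% were members and 39.2% other stromal cells, both under their shares among the neighbours of WT members. Neighbours came from both libraries, with 94 members, 149 other stromal cells and 278 uroplakin-positive cells, so the shares of 1 library are not exact baselines.

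The uroplakin-positive cells of the CKO library carried the marker genes at lower levels than the members, with Nkain4 at 128 CPM, Prss35 at 92.1 CPM, Fst at 50.4 CPM and Igfbp5 at 90.3 CPM. In the uroplakin-positive WT cells Nkain4 was at 22.5 CPM, Prss35 at 37.2 CPM, Fst at 4.17 CPM and Igfbp5 at 40.4 CPM. The higher marker levels of the CKO library were thus also present in stromal cells that the rule left out. Keratins were shared with these cells as well: Krt19 was at 493 CPM in CKO members, 234 CPM in WT members, 293 CPM in uroplakin-positive CKO cells and 222 CPM in uroplakin-positive WT cells, against 157 CPM in the other CKO stromal cells and 115 CPM in the other WT stromal cells.

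Within the CKO library 19 of 53 matrix structural genes and 10 of 30 glycolysis and hypoxia genes were at least 2-fold higher in the members than in the other CKO stromal cells, and Fst, Igfbp5 and several Wnt pathway genes were higher as well. Hoxc6, Hoxc8, Hoxc9 and Hoxc10 and 10 of 38 S phase genes were at least 2-fold lower. Of 5893 genes with at least 50 UMIs over both groups, 5.21% were at least 2-fold higher and 3.38% at least 2-fold lower in members, and the median log2 ratio of all of them was -0.06. Apart from the rule genes, the genes with the highest ratios were Fst, Atp1b1, G0s2, Igfbp5, Cpz, S100a6, Nrk, Cbln1, Hbegf, Fabp5, Nup62cl and Cox4i2. Fst had 101 UMIs in members and none in the other cells. With the other cells set to a floor of 3 UMIs over the group, Fst was 31.8-fold higher. The lower limit of its counting interval was 25.4-fold. Atp1b1, the beta subunit of the Na,K-ATPase to which the NKAIN proteins bind, had 116 UMIs in members and 6 in the other cells (18.2-fold, 8.13 to 50.7). G0s2, an inhibitor of the triglyceride lipase ATGL, was 14.1-fold higher (8.25 to 26.3) and Cpz, a secreted carboxypeptidase with a Frizzled-like domain, 13.0-fold higher (6.63 to 29.1). The calcium-binding protein gene S100a6 was at 407 CPM in members and 32.3 CPM in the other cells, and Cox4i2, a subunit of cytochrome c oxidase known from low-oxygen tissue, at 94.6 CPM and 13.2 CPM. Hbegf, a ligand of the EGF receptor, was at 73.4 CPM in members and 8.58 CPM in the other cells.

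Among Wnt ligands, receptors and pathway genes, 6 of the 20 measured were 2-fold higher in CKO members and none was 2-fold lower (median log2 ratio 0.42). Wnt2 is among the 6 by the choice of members. Besides Wnt2 these were the ligand Wnt4 (54 UMIs in members and 2 in the other cells, 25.5-fold, 6.72 to 216), the enhancer of Wnt signalling Rspo3 (59.1 and 21.1 CPM) and the secreted inhibitors or modulators Dkk2 (208 and 34.3 CPM), Dkk3 (46.7 and 7.92 CPM) and Sfrp1 (86.5 and 23.1 CPM). Summed over the members, ligands and inhibitors of the pathway were thus both higher. Whether single cells held both was not examined. Of the 54 Wnt4 UMIs in members, 47 came from the 34 cells with 12 or more marker UMIs. Of 26 activin, BMP and TGF-beta genes, 3 were higher and none lower (median 0.24): Fst, the ligand Bmp2 (66.6 CPM in members, 11.9 CPM in the other cells) and the matrix protein gene Tgfbi. Of 10 IGF system genes, Igfbp5 and Igfbp2 (655 CPM in members, 179 CPM in the other cells) were higher and none lower. Of the 16 measured genes for secreted signals to blood and vessels, 4 were higher and 1 lower (median 0.51); Cxcl12, the ligand of Cxcr4, was at 70.9 CPM in members and 26.4 CPM in the other cells.

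Matrix genes past 2-fold were mostly higher in CKO members. Of 53 matrix structural genes 19 were higher and 4 lower in CKO members (median 0.55), and of 26 matrix crosslinking and protease genes 10 were higher and none lower (median 0.55). Postn (periostin) was at 1845 CPM in members and 778 CPM in the other cells, Sparc at 4533 and 2240 CPM, Dcn (decorin) at 538 and 230 CPM and Fbln2 (fibulin 2) at 45.4 and 4.62 CPM. P4ha1 and P4ha2, catalytic subunits of the prolyl 4-hydroxylase of collagen, were 3.22-fold (2.71 to 3.85) and 4.22-fold (3.63 to 4.93) higher. The collagen sum belongs to the rule, so both groups had been required to express collagens. Prss35 belongs to the rule too, and it is among the 10 higher crosslinking and protease genes by the choice of members. Col14a1 (0.314), Sparcl1 (0.293), Bgn (0.420) and Col26a1 (0.475) were the 4 lower ones, with their ratios in parentheses.

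Of 5 HOX genes measured, Hoxc6, Hoxc8, Hoxc9 and Hoxc10 were lower and Hoxb2 higher in CKO members. Hoxc8 was at 95.8 CPM in members and 294 CPM in the other cells (3.07-fold lower), and Hoxc9 at 16.2 and 78.5 CPM (4.85-fold lower). Of 34 mesenchymal transcription factor genes, 6 were higher and 2 lower. Gata6 (132 CPM in members, 39.6 CPM in the other cells), Msx1 (74.1 and 13.9 CPM), Msx2, Pitx1 and Peg3 were among the higher, and Nkx2-3 and Klf2 were lower. The other genes with the lowest ratios were Plvap, Tdo2, Cd34, Gpm6b, Dnaic1, Ccnd1, Sept4, Rcc2, Tspan13 and Rrm2. Plvap, a protein of endothelial diaphragms, was at 16.2 CPM in members and 96.3 CPM in the other cells (5.95-fold lower), and Cd34 at 21.2 and 79.8 CPM; the log2 ratio of Cd34 was -1.92 over all cells and 0.072 among cells with Y-linked and no Xist UMIs. The endothelial marker list ran the other way, with 89.0 CPM in members and 35.6 CPM in the other CKO cells, and Cdh5 and Emcn at 0 in both. Its 2 measured genes were both higher in members: Kdr was at 38.0 CPM in members and 15.8 CPM in the other cells (2.40-fold, 1.47 to 4.02), and Tek at 37.3 and 4.62 CPM (8.08-fold, 3.69 to 20.97). In uroplakin-positive CKO cells Kdr was at 18.9 CPM and Tek at 37.8 CPM, so the Tek level was not particular to members. The part of the endothelial list in these values was not tested.

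Cell-cycle genes were lower in CKO members, with 10 of 38 S phase genes 2-fold lower and none higher (median -0.74), and 10 of 51 G2 and mitosis genes lower and none higher (median -0.69). Rrm2, a subunit of ribonucleotide reductase, was at 72.2 CPM in members and 211 CPM in the other cells, Ccnb1 (cyclin B1) at 54.8 and 150 CPM and Ccnd1 (cyclin D1) at 18.0 and 58.7 CPM. The S phase genes summed per cell to a median of 11.9 per 10000 UMIs in CKO members (3.67 to 55.5) and 29.0 in the other CKO stromal cells (4.96 to 54.7), so the ranges overlapped widely. Of 30 glycolysis and hypoxia genes, 10 were higher and none lower (median 0.87). Slc16a3, the lactate exporter MCT4, was at 466 CPM in members and 106 CPM in the other cells, and the glucose transporter gene Slc2a3 at 126 and 24.4 CPM. Of 28 stress genes after dissociation, 4 were higher and 1 lower, with Fosb at 98.3 CPM in members and 25.1 CPM in the other cells. In the list of 20 smooth muscle contractile genes only Csrp2 was higher (1629 and 267 CPM) and 2 were lower, with a median of 0.08. The median depth was 20231 UMIs in members and 26233 UMIs in the other CKO cells.

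The remaining lists had few genes past 2-fold in CKO members. Of 22 imprinted growth genes 3 were higher and none lower, of 10 carbonic anhydrase and membrane transport genes 2 and none, and of 5 NKAIN and Na,K-ATPase genes Nkain4, Atp1b1 and Fxyd6 were higher and none lower. Nkain4 is a rule gene, so its place there was fixed by the choice of members. Of 21 BAF complex genes Actl6a alone was lower and none higher, of 12 p53 targets 2 were higher and 1, Cdkn1a, lower, and of 5 interferon response genes Ifitm3 was lower.

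**Figure D3:**
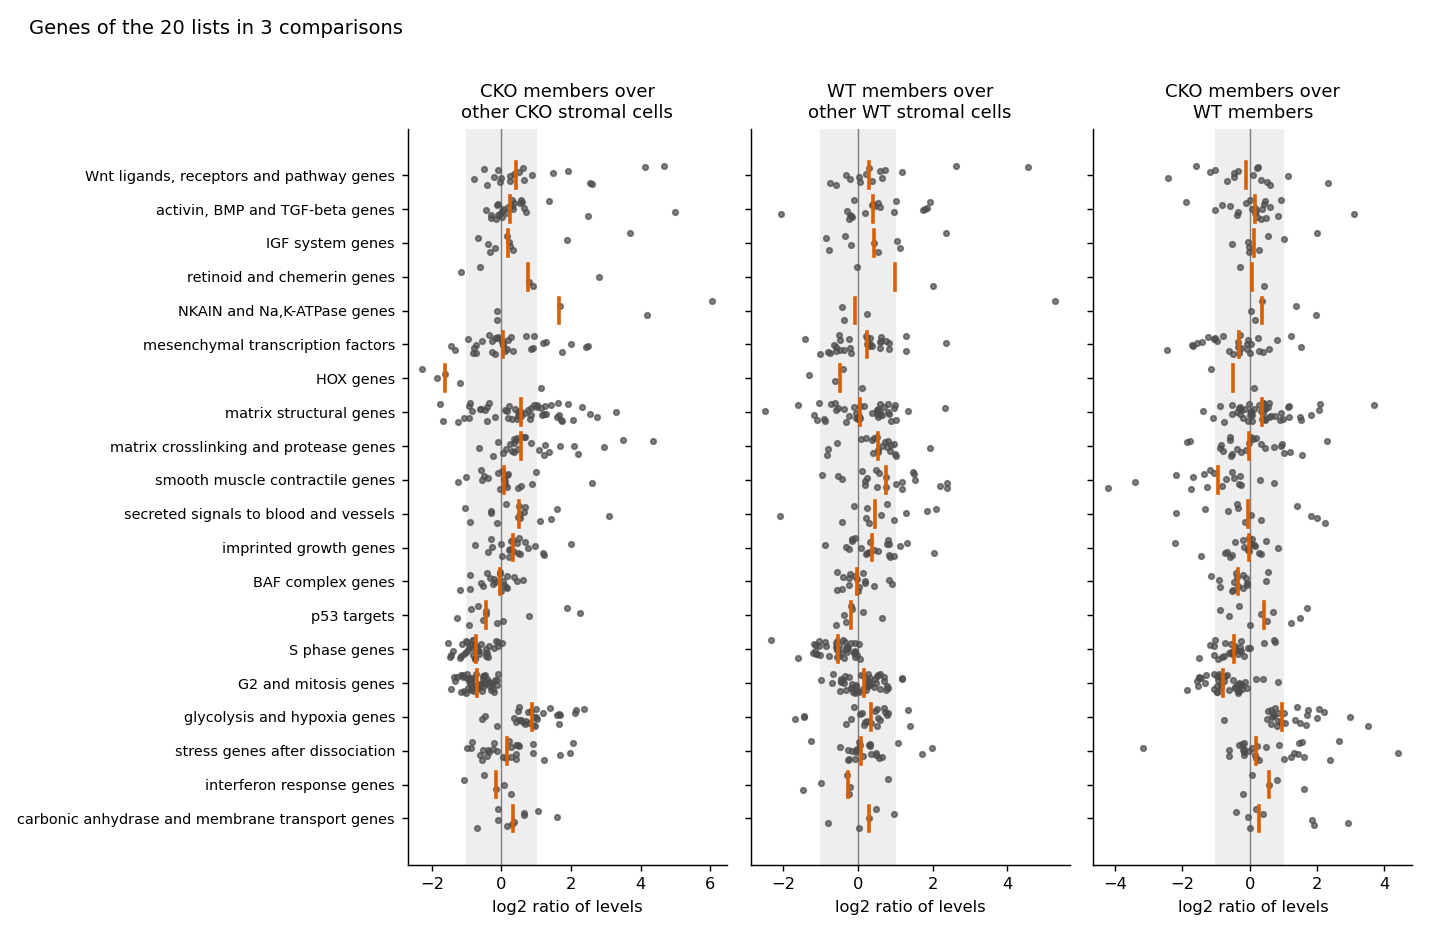
Log2 ratios of levels (x axis) for the measured genes of the 20 gene lists (rows; each grey point is a gene, the orange line the list median, the shaded band less than 2-fold) in 3 comparisons. Matrix and glycolysis genes lie mostly right of 0 in CKO members over other CKO stromal cells, and smooth muscle contractile genes lie right of 0 in WT members over other WT stromal cells (median 0.75) but left of 0 in CKO members over WT members (median -0.94).

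The WT members were fewer, and they too had Nrk, Nup62cl, Fabp5 and S100a6 above the other stromal cells of their library, and 9 contractile genes were at least 2-fold higher too. Of 5171 measured genes, 3.36% were at least 2-fold higher and 4.45% at least 2-fold lower in WT members, with a median log2 ratio of -0.02. Nup62cl, an X-linked gene related to a nuclear pore protein, was at 201 CPM in WT members and 13.6 CPM in the other WT stromal cells (14.8-fold, 9.54 to 23.8). Nrk was at 338 and 28.6 CPM, Fabp5 at 530 and 65.8 CPM and S100a6 at 590 and 95.5 CPM. Of 21 smooth muscle contractile genes, 9 were higher and none lower (median 0.75). Actg2, the gamma actin of smooth muscle, was at 1739 CPM in WT members and 331 CPM in the other WT cells, Acta2 at 8077 and 3551 CPM and Tagln (transgelin) at 2396 and 853 CPM. The further genes with the highest ratios were Csrp2, Pitx1, Map1b, Cd24a, Actc1, Grb10 and Rarres2. Actc1, the cardiac actin, had UMIs in only 35.3% of WT members.

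The lowest ratios in WT members were those of Fam162b, Ccnd1, Ngfr, Tdo2, Tspan13, Enho, Adamts18, Dusp9, Hapln1, Slc27a3, Ung and Bcmo1. Tdo2 was at 34.7 CPM in WT members and 373 CPM in the other WT cells (10.8-fold lower), and Ccnd1 had 3 UMIs in WT members and 216 in the other WT cells (ratio 0.0639, 0.0131 to 0.189). Tspan13, a tetraspanin gene, had no UMI in WT members and 145 UMIs in the other WT cells. Of 41 S phase genes 11 were lower and none higher (median -0.54), whereas of 47 G2 and mitosis genes 2 were higher and 1 lower (median 0.17). Of 44 matrix structural genes 3 were higher and 5 lower (median 0.05), of 15 Wnt genes 3 were higher and none lower, and of 19 activin, BMP and TGF-beta genes 5 were higher and 1 lower. Wnt2, a rule gene, is among the 3 higher Wnt genes. Of 23 glycolysis and hypoxia genes 2 were higher and 3 lower.

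The contrasts within the 2 libraries rest on different cells and can be set side by side. Of 4985 genes measured in both, 53 were at least 2-fold higher in the members of both libraries, which is 30.8% of the 172 higher in CKO members and 33.5% of the 158 higher in WT members. A further 34 were lower in both, which is 20.4% of the 167 lower in CKO members and 16.7% of the 204 lower in WT members. The genes higher in both included Wnt4 and Sfrp1, Igfbp2 and Igfbp5, Rarres2, the X-linked Nrk and Nup62cl, Fabp5, S100a6, Csrp2, the microfibril protein gene Mfap4, the cell adhesion gene Flrt3, Gata6, Pitx1 and Krt19. Nrk had a log2 ratio of 3.59 in the CKO library and 3.56 in the WT library, and Fabp5 3.03 and 3.01. Genes lower in both included Plvap (-2.57 in the CKO library, -2.17 in the WT library), Tdo2 (-1.94 and -3.43), Hoxc8 (-1.62 and -1.30), Ccnd1 (-1.70 and -3.97) and Col14a1 (-1.67 and -1.11). The 2 marker genes Wnt2 and Nkain4 are in the first count by construction.

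Between the libraries, 9 of 18 smooth muscle contractile genes were at least 2-fold lower in CKO members than in WT members, and 13 of 26 glycolysis and hypoxia genes and 10 of 28 stress genes at least 2-fold higher. Of 4574 measured genes 7.06% were at least 2-fold higher and 6.47% at least 2-fold lower in CKO members, and the median log2 ratio was -0.09. The CKO members entered this comparison and the one with the other CKO cells, so the values are not independent. The highest ratios were those of Podxl, C1ql1, Fosb, Cyp2s1, Smoc2, Hist1h2ap, Ndrg1, Maff, Zfp36, Atp5g2, Atf3 and Apoe. Podxl (podocalyxin, a sialomucin of mesothelium and podocytes) had 244 UMIs in CKO members and 1 UMI in WT members (ratio 65.6, 11.7 to 2603), and C1ql1, a secreted C1q-like protein gene, 165 UMIs and 1 UMI (44.4, 7.86 to 1764). Smoc2, a matricellular protein gene, was at 212 CPM in CKO members and 16.2 CPM in WT members (13.1-fold, 6.27 to 32.8), and Apoe at 266 and 50.9 CPM. Smoc2 and Podxl were also at 231 and 183 CPM in uroplakin-positive CKO cells and at 236 and 94.3 CPM in uroplakin-positive WT cells. With the uroplakin limit dropped, the log2 ratio of Podxl was 2.22 in place of 6.04, that of Smoc2 1.21 in place of 3.71 and that of C1ql1 2.55 in place of 5.47. The other stromal cells did not separate the libraries in Podxl, with 27.0 CPM in the CKO library and 23.1 CPM in the WT library.

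The lowest ratios in CKO members over WT members were those of Actg2, Anxa1, Des, Hspb1, Actc1, Phlda2, Tagln, Cotl1, Hes1, Rock2, Lmo1 and Arpc1b. Of 18 smooth muscle contractile genes 9 were at least 2-fold lower and none higher (median -0.94). Actg2 was at 93.97 CPM in CKO members and 1739 CPM in WT members (18.5-fold lower), Des (desmin) at 16.8 and 178 CPM and Tagln at 521 and 2396 CPM. Acta2 was at 2432 CPM in CKO members and 8077 CPM in WT members (ratio 0.301, 0.288 to 0.315). In the other stromal cells the order of the libraries was the same but closer, with Acta2 at 2486 CPM in the CKO library and 3551 CPM in the WT library. Per cell, the smooth muscle markers summed to a median of 30.2 per 10000 UMIs in CKO members (2.64 to 206) and 144 in WT members (31.4 to 305). The interquartile ranges, 17.5 to 43.4 in CKO members and 75.1 to 187 in WT members, did not overlap, while the whole ranges overlapped from 31.4 to 206.

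Of 26 glycolysis and hypoxia genes 13 were at least 2-fold higher in CKO members and none was lower (median 0.97). Pgk1 (phosphoglycerate kinase) was at 331 CPM in CKO members and 71.7 CPM in WT members, Slc16a3 at 466 and 141 CPM, Bnip3, a mitophagy receptor gene, at 192 and 60.1 CPM and Ndrg1 at 183 and 23.1 CPM; without the uroplakin limit the log2 ratio of Ndrg1 was 0.067 in place of 2.98. The list summed per cell to a median of 173 per 10000 UMIs in CKO members (43.7 to 382) and 71.1 in WT members (33.8 to 190), and to 81.8 in the other CKO stromal cells and 63.7 in the other WT stromal cells. In uroplakin-positive cells the median was 102 in the CKO library (45.4 to 303) and 72.2 in the WT library, so the higher CKO level was in part shared with them. Of 28 stress genes after dissociation 10 were higher and 1, Hspb1, lower (median 0.20). Fosb had 158 UMIs in CKO members and 2 in WT members (21.3-fold, 5.79 to 177), Atf3 was at 133 and 25.4 CPM, Egr1 at 383 and 141 CPM and Fos at 518 and 206 CPM. These genes respond to handling of cells as well as to signals in tissue, they moved with the glycolysis genes between the libraries, and their part in the result was not tested. The globin level moved with the library too, as given above.

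**Figure D4:**
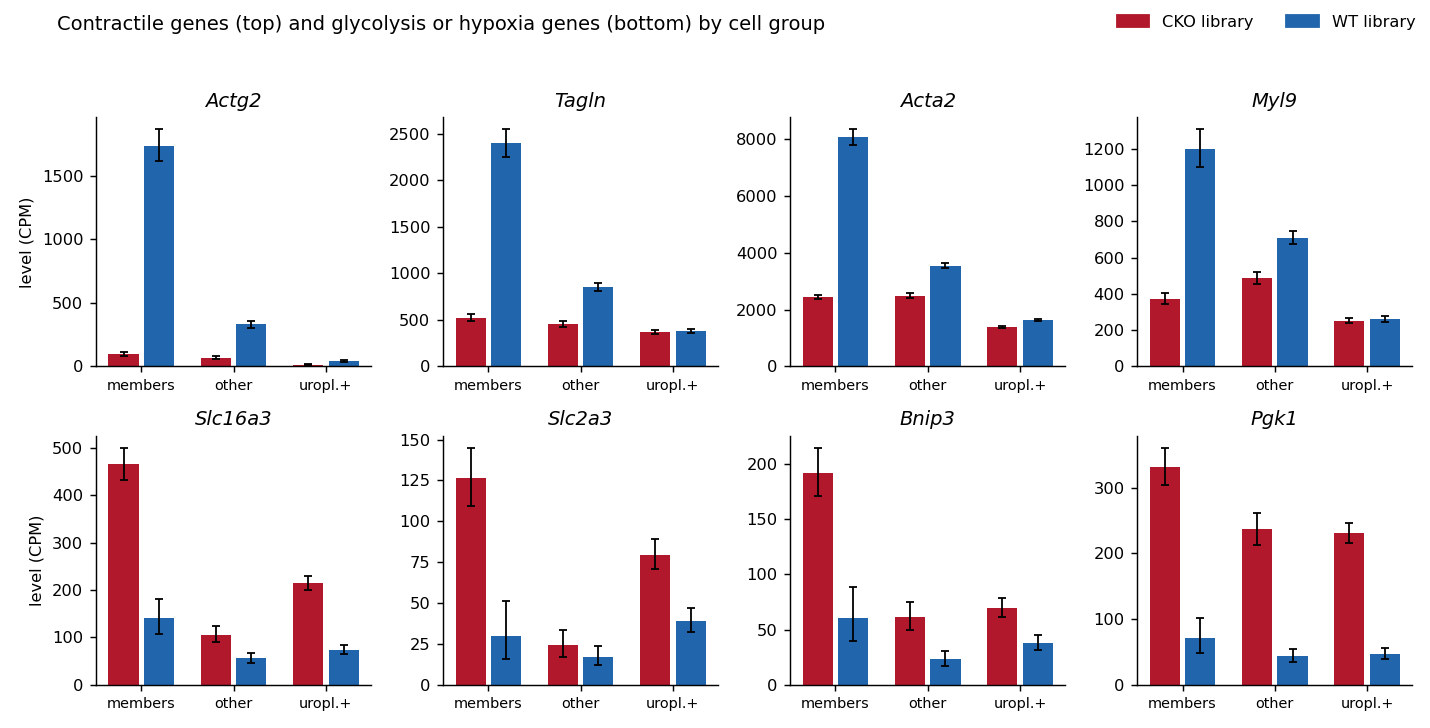
Levels in CPM (bars, 95% Poisson intervals as lines) of 4 contractile genes (top) and 4 glycolysis or hypoxia genes (bottom) in members, other stromal cells and uroplakin-positive cells, CKO library in red left of the WT library in blue. The contractile genes stand highest in WT members, with Actg2 at 1739 CPM, and the lower 4 genes highest in CKO members, with Slc16a3 at 466 CPM.

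For the other lists, matrix structural genes were 10 higher and 2 lower of 49 in CKO members over WT members (median 0.38). Mesenchymal transcription factor genes were 2 higher and 8 lower of 29, with Klf2, Nr2f2, Pitx1 and Snai2 among the lower. Of 16 Wnt genes 2 were higher and 4 lower: Dkk2 was at 208 CPM in CKO members and 41.6 CPM in WT members, and Wnt4 at 33.6 and 102 CPM. Tgfb2 was at 51.0 CPM in CKO members and 190 CPM in WT members, and Bmp5 at 59.7 and 6.94 CPM (96 and 3 UMIs, ratio 8.61, 2.86 to 42.5). G2 and mitosis genes were 10 lower and none higher of 40 (median -0.80), and S phase genes 5 lower and none higher of 27 (median -0.45). Of 16 BAF complex genes Smarcc1 alone was 2-fold lower and none higher. Of 10 p53 targets 3 were higher and none lower.

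The members of a library came from several embryos, which Xist and Y-linked transcripts separate in part. In the CKO library 24 members had Xist and no Y-linked UMI and 39 had Y-linked and no Xist UMI, against 5 and 11 of the WT members. The CKO members with Y-linked UMIs had the higher marker and glycolysis levels. Igfbp5 was at 396 CPM in those with Y-linked UMIs and 64.9 CPM in those with Xist, Rarres2 at 422 and 95.7 CPM and Fabp5 at 1397 and 379 CPM. Wnt2 differed less, with 200 and 169 CPM. Ndufa4l2, a mitochondrial protein gene known to rise in low oxygen, was at 262 CPM in CKO members with Y-linked UMIs and 8.54 CPM in those with Xist. The glycolysis and hypoxia list summed to 20532 CPM in CKO members with Y-linked UMIs and 10978 CPM in those with Xist, and in WT members to 9217 and 9126 CPM. Fosb was at 159 CPM in CKO members with Y-linked UMIs and 25.6 CPM in those with Xist, while such WT members had no UMI and 17.4 CPM. The glycolysis and Fosb levels of CKO members with Xist therefore stood much nearer to those of WT members.

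The contractile difference was present in both sets. Acta2 was at 2320 CPM in CKO members with Y-linked UMIs and 8771 CPM in such WT members, and at 2903 CPM in CKO members with Xist and 6389 CPM in such WT members. Actg2 was at 101 and 1695 CPM, and at 108 and 1203 CPM, in the same order. Sex, embryo and stage cannot be told apart in these sets. Within the CKO library, the share of genes at least 2-fold higher in members over other cells was 2.75% among cells with Xist, against 5.21% over all cells.

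**Figure D5:**
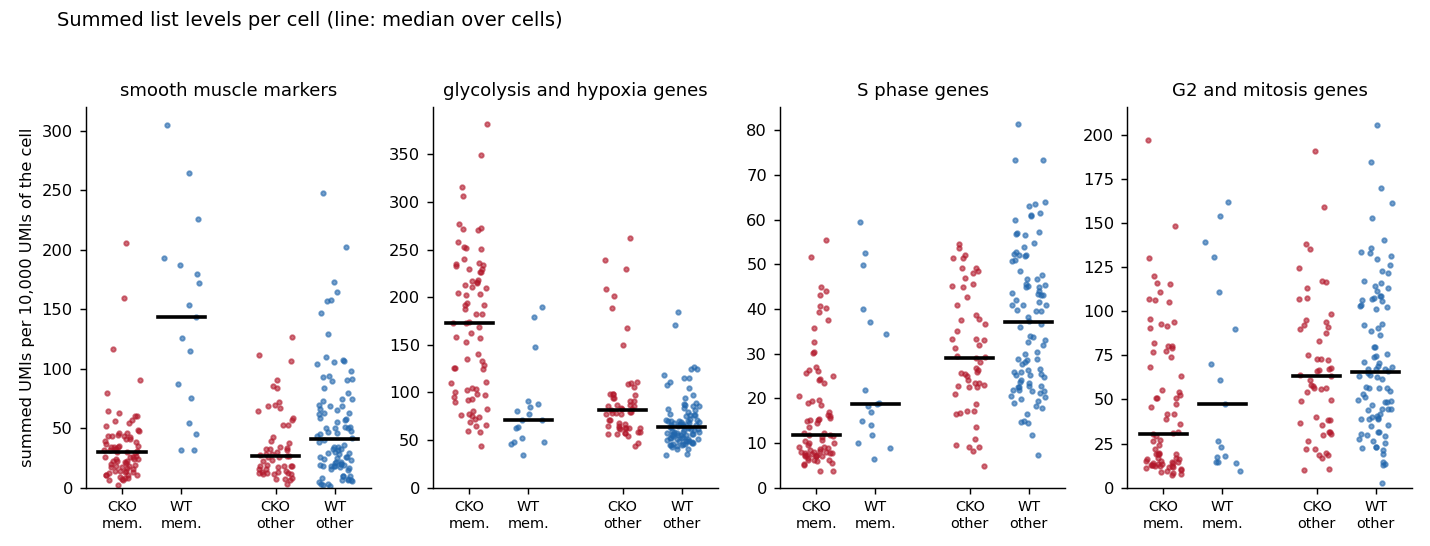
Summed UMIs of 4 gene lists per 10000 UMIs of a cell (y axes; each point is a cell, the black line the median) in CKO members, WT members, other CKO and other WT stromal cells. The smooth muscle markers stand highest in WT members (median 144), the glycolysis and hypoxia genes in CKO members (median 173), and the cell-cycle lists overlap across all 4 groups. Uroplakin-positive cells are not drawn, and their glycolysis and hypoxia medians were 102 in the CKO library and 72.2 in the WT library.

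The CKO members were also set against the other WT stromal cells. Of 6272 measured genes 6.73% were at least 2-fold higher and 8.75% at least 2-fold lower, with a median log2 ratio of -0.13. Glycolysis and hypoxia genes were 20 higher and none lower of 30 (median 1.30), matrix structural genes 17 higher and 3 lower of 52 and S phase genes 21 lower and none higher of 42. Mesenchymal transcription factor genes were 5 higher and 7 lower of 37, activin, BMP and TGF-beta genes 9 higher and none lower of 27 and stress genes 10 higher and 1 lower of 28. Cox4i2 had 152 UMIs in CKO members and 1 UMI in the other WT cells (ratio 188, 33.3 to 7484), Fst 101 and 2 UMIs (62.5, 16.9 to 523.5) and Atp1b1 116 and 3 UMIs (47.9, 16.0 to 235.6). The lower genes included Tdo2 (40.4 CPM in CKO members, 373 CPM in the other WT cells), Tcf21, a transcription factor gene of visceral mesenchyme (12.4 and 74.4 CPM), and Col14a1 (11.2 and 84.9 CPM). The remaining genes of the highest and lowest ratios there were Igfbp5, Fosb, Fabp5, Ndufa4l2, Hbegf, Tnfrsf12a, Maff, Nrk and Grina (8.90-fold to 20.4-fold higher) and Fam101b, Tmem51, Anxa1, Ehd4, Tnnt3, Ngfr, Ccnd1, Gpm6b and Bcmo1 (ratios of 0.0975 to 0.177). These comparisons share the CKO members and are not independent of each other.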

How the data were processed

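The authors deposited 1 filtered 10x matrix per genotype with whole-number UMI counts per gene and barcode, not normalized; the barcode and gene tables are labels, not measurements. The submitters' processing notes name Cell Ranger, Seurat and GRCm38, with no versions; the matrices held all 33456 genes, and 71 symbols belong to several gene IDs. The totals per barcode ran from 6054 to 114332 UMIs in the WT library (815 barcodes) and from 6328 to 96471 in the CKO library (865 barcodes).

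From these counts, barcodes were gated as described above with Python 3.11.15, numpy 2.4.6, scipy 1.17.1 and pandas 2.3.3. The members and all gene lists were chosen with earlier results of these data known. UMIs were summed over the cells of a group and divided by the group's total (CPM), with exact Poisson intervals. Ratios of summed counts have exact conditional binomial (Clopper-Pearson) intervals, and shares have exact binomial intervals. Molecules of a cell are not replicates, and so no p-value was computed. A gene was measured in a comparison with at least 50 UMIs over both groups and counted as higher or lower at 2-fold. Named genes were the 12 with the highest and the 12 with the lowest ratio of those reaching 100 UMIs in the 2 groups together and seen in 10% or more of the cells of the higher group, leaving out rule genes, ribosomal, mitochondrial, globin, Xist and Y-linked genes and unnamed gene models. List medians use 0.5 CPM added to each level. A group with no UMI was set to 3 UMIs for its ratio. Doublets were called with Scrublet at an expected rate of 1%. Stromal cells were clustered with scanpy 1.11.5 (2000 variable genes, 30 components, 15 neighbours, Leiden resolution 1) after leaving out the rule genes. The code for ratios and intervals was tested on simulated data. Gene positions are from GENCODE M21 and promoter windows from RefSeq. Alternatives varied the gates, thinning to 10000 UMIs, filters on gene counts, scaling and the Xist or Y-linked subsets; the table of members by Xist and Y-linked UMIs was added after seeing the data. Some results are not reported here.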

Additional observations from a re-analysis of the deposited data

Results flagged for a closer look

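Each gene here was at least 2-fold higher in the members than in the other stromal cells of one library and at least 2-fold lower in those of the other. The difference between the libraries was not tested, since each has 1 sample. The values are log2 ratios of members over other stromal cells.

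Ndrg1, a gene known to respond to low oxygen, was at 1.61 in the CKO library and -1.44 in the WT library (CKO minus WT 3.05). Smoc2 was at 1.43 and -1.60 (3.03), and Pkdcc, a secreted kinase gene, at 1.21 and -1.90 (3.12). Col9a1, a chain of collagen IX, was at 1.29 and -1.18 (2.47). These 4 genes were higher in CKO members and lower in WT members, against their own other stromal cells.

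Anxa1 (annexin A1) was at -1.15 in the CKO library and 1.13 in the WT library (CKO minus WT -2.28), Des at -1.24 and 1.17 (-2.40) and Itga4, the alpha 4 integrin chain, at -1.53 and 1.33 (-2.86). The UMIs behind the smaller groups are few: in WT members Pkdcc rests on 5 UMIs, Smoc2 on 7, Ndrg1 on 10 and Col9a1 on 15. In CKO members Anxa1 rests on 22 UMIs, Itga4 on 26 and Des on 27. Without the uroplakin limit Ndrg1 was at 1.74 in the WT library, and in cells thinned to 10000 UMIs Des was at 0.11 in the CKO library.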

How the results depend on the processing

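No paired analysis was possible because each genotype has 1 library, and no replicate could be left out. The shares kept their order, higher in the CKO library, under each gate tried; without the uroplakin limit they were 19.2% of kept barcodes in the CKO library and 4.32% in the WT library, and 58.0% and 14.2% of stromal cells.

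For CKO members over other CKO stromal cells, at least 5 marker UMIs per member gave 8.84% of genes higher and 5.75% lower, a minimum of 20 UMIs per gene 5.25% lower, a minimum of 200 UMIs 1.27% lower, and cells with Xist 2.75% higher. For CKO members over WT members, a minimum of 200 UMIs gave 3.56% lower and no uroplakin limit 4.04% lower. For CKO members over other WT stromal cells, no uroplakin limit gave 5.73% lower and cells with Xist 3.63% higher. For WT members over other WT stromal cells, thinning gave 6.68% lower, a minimum of 20 UMIs 5.66% higher and 7.90% lower, and a minimum of 200 UMIs 1.79% higher and 1.47% lower. A higher minimum tests fewer genes by construction; the other causes were not tested.

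Of 7894 recomputed single-gene values 6909 lay inside the counting interval of the value reported, 964 moved outside it and 21, each at least 2-fold as reported, changed sign. For CKO members over other CKO cells these were, after thinning, Anln (log2 ratio 0.33) and Des (0.11); with Xist, Atf3 (-0.28), Ccne1 (0.85), Cdkn1a (0.99), Dusp1 (-0.50), Klf2 (0.18) and Ptn (-0.085); with Y-linked UMIs, Cd34 (0.072). For CKO over WT members they were Tcf7l2 after thinning (0.18) and Pfkp without the uroplakin limit (-0.53). For CKO members over other WT cells they were Id1 after thinning (-0.12) and, with Xist, Dusp1 (-0.85), Egln3 (-0.061), Tgfb3 (-0.80), Vegfa (-0.20) and Wnt4 (-0.18). For WT members over other WT cells they were Dtl after thinning (0.35), Id3 (-0.14) and Ndrg1 (1.74) without the uroplakin limit, and Id3 with Y-linked UMIs (-1.07). The cause was not tested. The comparisons of CKO and WT members and of WT members with other WT cells were not run among cells with Xist, since WT has 5 such members, under the minimum of 10. Depth limits WT members most, at 432342 UMIs over 17 cells.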

Other observations

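Some markers of neighbouring tissues were measured in the members. Of the 10 trophoblast markers 8 had no UMI in CKO members and 9 had none in WT members, and Plac1, an X-linked placental gene, held nearly the whole sum. Plac1 was at 50.4 CPM in CKO members and 111 CPM in WT members (ratio 0.454, 0.314 to 0.663), and at 54.8 CPM in the other CKO stromal cells and 28.1 CPM in the other WT stromal cells. The allantois list summed to 22.4 CPM in CKO members and 64.8 CPM in WT members, against 7.26 CPM in the other CKO stromal cells and 8.54 CPM in the other WT stromal cells. Tbx4, a transcription factor gene of the allantois and hind limb, had 1 UMI in CKO members and 6 UMIs in WT members, and none in the other WT stromal cells. Hoxa10 had 5 UMIs in CKO members and 9 UMIs in WT members. These counts rest on few UMIs and no comparison of the design covers them.

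The epithelial list summed to 2784 CPM in CKO members and 1416 CPM in WT members, led by Krt8 at 1641 and 828 CPM, and Cdh1 and Krt7 had no UMI in either. This list summed to 1427 CPM in the other CKO stromal cells and 1394 CPM in the other WT stromal cells. In uroplakin-positive cells it summed to 2632 CPM in the CKO library and 2472 CPM in the WT library. The visceral endoderm list summed to 31.1 CPM (23.1 to 41.0) in CKO members and 50.9 CPM (31.9 to 77.0) in WT members, and the parietal endoderm list to 338 CPM in CKO members and 335 CPM in WT members. In the other stromal cells the parietal endoderm list was near these levels, at 298 CPM in the CKO library and 318 CPM in the WT library.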
